A study of Lepidobatrachus laevis with 14 samples.

Results

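The left and right parts of single stomachs of Lepidobatrachus laevis were compared gene by gene, pair by pair. Lepidobatrachus laevis, Budgett's frog, has carnivorous larvae with a large stomach, and the series was made to ask which transcripts differ between the sides while the stomach takes its asymmetric shape. The comparison uses 10 of the 14 libraries of the series, 5 of left and 5 of right stomach, and joins them into 5 pairs by the stem of their titles (pairs 1, 2, 3, 5 and 6). The 4 remaining libraries, 2 per side, each pool tissue of 5 stomachs and stand outside the pairs. Embryos of both groups were wild-caught and wild-type at Gosner stage 19, so the groups share stage, genotype and tissue and differ in the side labelled. The titles of pair 1 speak of foregut and those of pair 2 of gut, while all 10 libraries carry the tissue label stomach. The labels do not state that the libraries of a stem were cut from 1 stomach. The p-values therefore speak of the spread among these 10 libraries, which may be technical in part.

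The vertebrate stomach forms from a midline gut tube that bends to the left as its walls thicken and lengthen unequally. Each wall holds an endodermal lining inside a sheath of mesoderm, into which neural crest cells migrate to form the enteric nervous system, and Wnt, FGF, Hedgehog, BMP and Notch signals pass between the layers. SIM2, a transcription factor of the bHLH-PAS family, is named in the title of the series as required for the asymmetric shape. Liver, pancreas and heart develop next to the stomach, so tissue cut at this stage can carry their transcripts.

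The count table is indexed by human UniProt protein entries, and the rows of 1 entry were summed and read as 1 gene. No genomic position is attached to them. The 10 libraries held 21525694 to 62707669 counts, the deepest in pairs 5 and 6, and 21079 of 21099 genes had a count. Levels are in CPM, after scaling every library to 1 effective total by TMM. Stomach factors were present in all 10 libraries, from 27.0 to 187.5 CPM for BARX1, the homeobox factor of stomach mesenchyme, from 14.0 to 63.6 CPM for NKX3-2 and from 4.71 to 134 CPM for SOX2, a factor of foregut endoderm. Values below follow the order of pairs 1, 2, 3, 5 and 6.

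Whether any gene was called between the sides depended on the tool. The quasi-likelihood test of edgeR with the pair as a block called 0 of 17835 genes (0%) at a Benjamini-Hochberg adjusted p of 0.05. Its smallest adjusted p was 0.265, for AKR1D1, and 1089 genes (6.11%) had an unadjusted p under 0.05, 418 higher and 671 lower on the left. DESeq2 with the same block called 79 genes, 0.444% of 17809, with 28 higher (0.157%) and 51 lower (0.286%) on the left. With no block for the pair DESeq2 called 0. The voom and trend methods of limma, with the pair as a block, also called 0. Of the 79 genes of paired DESeq2, 73 had 1 sign in all 5 pairs, against 7.27% of all genes tested. An unadjusted p under 0.05 in edgeR was found for 78 of them. A test with the pair as a block favours genes whose pairs agree. The share of 1 sign therefore follows in part from the selection and is no separate support. The genes called higher had a median DESeq2 log2 fold of 0.83 and the genes called lower one of -0.57. Folds of at least 2 were found for 10 of the genes called higher and 6 of those called lower. In the words used below, "called" refers to DESeq2, and log2 folds are edgeR values, left over right, with their standard error unless DESeq2 is named. In the edgeR fit of all 5 pairs none of these folds passed, even where a DESeq2 adjusted p stands beside it. Neither tool was independent evidence for the other, since both read the same libraries.

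**Figure D1:**
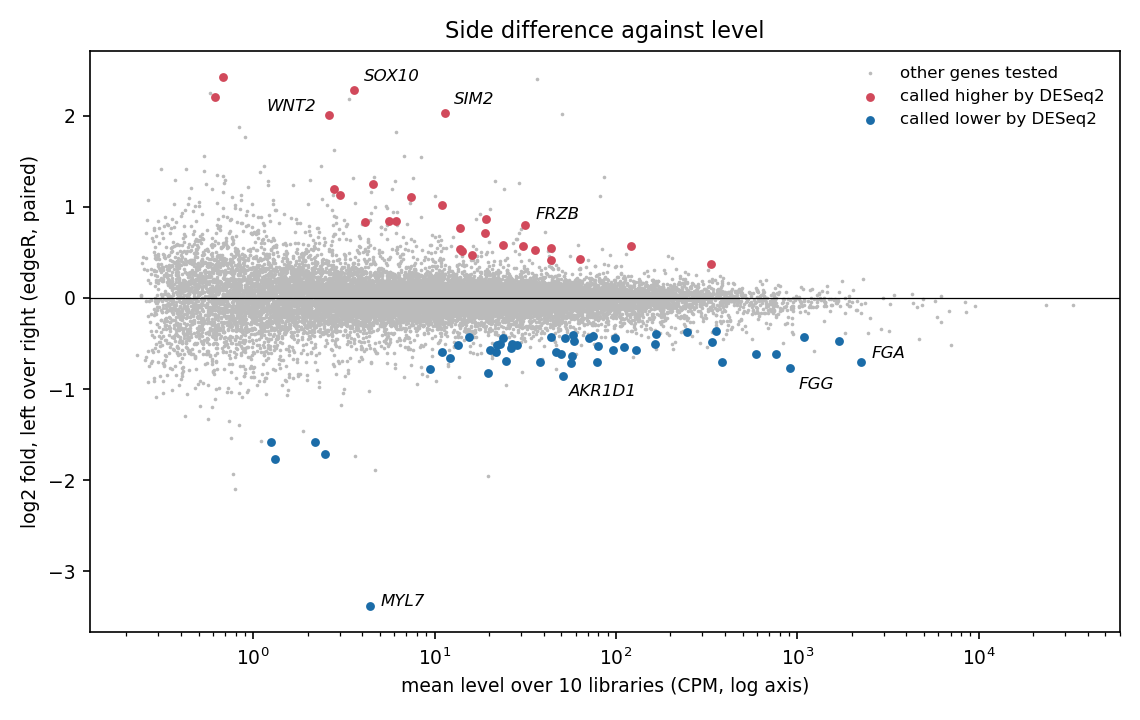
Each point is 1 of the 17835 genes tested, with the mean level over the 10 libraries in CPM on a log axis and the edgeR log2 fold, left over right, on the vertical axis. Genes called by DESeq2 are red (higher) and blue (lower), and the blue points reach further to the right than the red ones, FGA and FGG among them.

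The calls rested on some pairs more than on others. Without pair 1 DESeq2 called 23 genes and without pair 2 it called 36, whereas 93, 92 and 79 were called without pairs 3, 5 and 6. Of the 79 genes, 12 were called again whichever of the 5 pairs was set aside. These 12 were the plasma proteins FGA, FGB, FGG, APOM, CPB2 and SERPINF2, the steroid reductase AKR1D1, the secreted kinase PKDCC, the Wnt modulator FRZB, the homeobox factor DLX2 and the unreviewed entries C9JEU5 and D6REL8. They comprise 10 entries lower and 2 higher on the left. WNT2 was called in the 4 such fits that gave it an adjusted p. Unreviewed entries, 11 of the 79, were each counted as a gene of their own. They may be second entries of genes named here, which was not tested. D6REL8 had an edgeR log2 fold of -0.62 ± 0.11, and FGB had the same rounded value. The 12 entries may therefore stand for fewer genes.

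SIM2 was higher on the left in every pair. It stood at 17.4, 36.4, 27.5, 4.23 and 4.39 CPM in the left libraries and at 8.81, 1.58, 13.05, 0.630 and 0.845 CPM in the right ones. The left libraries of pairs 5 and 6 lay below the right libraries of pairs 1 and 3, so the sides overlap across pairs and separate within them. With 0.5 CPM added, the ratio of left to right ran from 1.92 in pair 1 to 17.75 in pair 2. The log2 fold was 2.03 ± 0.44 in edgeR (unadjusted p = 0.00175, adjusted p = 0.562) and 2.29 ± 0.58 in DESeq2 (adjusted p = 0.0286). Exact two-sided permutation of the sides within pairs gave p = 0.0625, the smallest p that 32 arrangements allow. The fit was also run in pairs 1 to 3 alone and in pairs 5 and 6 alone, termed library sets here. No difference between these sets was tested, here or below, and the second set holds only 2 pairs. By library set the edgeR log2 fold of SIM2 was 1.85 ± 0.65 in pairs 1 to 3 and 2.55 ± 0.33 in pairs 5 and 6. SIM2 was not called by DESeq2 without pair 5 (adjusted p = 0.184) or without pair 6 (adjusted p = 0.154). Its 2 rows are isoforms that may share reads, with mean log2 ratios of 1.86 and 1.74.

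Several secreted Wnt factors accompanied SIM2 on the left. WNT2, a Wnt ligand that in the mouse is made by foregut mesoderm, stood at 3.39, 7.11, 6.53, 0.468 and 3.47 CPM on the left and at 0.641, 0.676, 2.80, 0.0340 and 1.03 CPM on the right. It was low in both libraries of pair 5, and the sides overlap only through that left library. Its log2 fold was 2.00 ± 0.30 (DESeq2 adjusted p = 1e-07), and 2.05 ± 0.40 in pairs 1 to 3 against 1.97 ± 0.45 in pairs 5 and 6. FRZB (entry SFRP3), a secreted protein that binds Wnt ligands, stood at 42.1, 73.0, 43.4, 23.9 and 19.5 CPM on the left and at 31.8, 30.5, 29.7, 12.5 and 10.95 CPM on the right. Pair 2 had the highest left library, and the left libraries of pairs 5 and 6 lay below the right ones of pairs 1 to 3. The log2 fold of FRZB was 0.80 ± 0.12 (DESeq2 adjusted p = 1.32e-05).

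RSPO3, a secreted protein that strengthens Wnt signalling, had levels that differed less between the library sets. It stood at 25.9, 37.6, 41.3, 41.9 and 37.4 CPM on the left and at 24.5, 19.7, 21.3, 28.4 and 29.9 CPM on the right. Apart from left 1 every left library lay above every right one, and the log2 fold was 0.57 ± 0.13 (DESeq2 adjusted p = 0.0272). The side difference was 0.66 ± 0.20 in pairs 1 to 3 and 0.44 ± 0.17 in pairs 5 and 6, and RSPO3 was called in 2 of the 5 fits that left out a pair. APCDD1, a membrane protein that inhibits Wnt signalling, had a log2 fold of 0.86 ± 0.24 and was higher in 5 of 5 pairs (DESeq2 adjusted p = 0.0156). WNT5A, a ligand of the noncanonical branch, stood at 17.6 ± 7.87 CPM on the left against 9.88 ± 2.67 CPM on the right (SD, n = 5). It was higher in 4 of 5 pairs, with pair 1 the other way (DESeq2 adjusted p = 0.0425). Of the 5 fits that left out a pair, WNT5A was called in 1, the fit without pair 1, and APCDD1 in 2. The Frizzled receptor FZD3 was higher in 5 of 5 pairs, at 21.1 ± 5.88 and 15.05 ± 2.34 CPM, but was not called (log2 fold 0.45 ± 0.10, DESeq2 adjusted p = 0.0577).

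Other ligands and regulators of the wall were called higher. FGF10, a growth factor sent from mesenchyme to epithelium, stood at 3.94, 13.3, 9.15, 3.91 and 2.26 CPM on the left and at 2.53, 2.93, 5.81, 0.545 and 1.72 CPM on the right. The widest gaps were in pairs 2 and 5, the sides overlap, and the log2 fold was 1.25 ± 0.34 (DESeq2 adjusted p = 0.0156). FGF10 was not called without pair 2 (adjusted p = 0.435) or pair 5 (adjusted p = 0.172). DLX2, a homeobox factor, stood at 24.5, 14.0, 22.6, 7.44 and 6.47 CPM on the left and at 6.41, 6.04, 13.7, 3.76 and 5.26 CPM on the right. Its log2 fold was 1.01 ± 0.21 (DESeq2 adjusted p = 0.000492), with 1.26 ± 0.24 in pairs 1 to 3 and 0.63 ± 0.25 in pairs 5 and 6. HEY1, a repressor switched on by Notch signalling, had left libraries of 10.3 to 32.2 CPM and right libraries of 7.98 to 20.7 CPM, and a log2 fold of 0.51 ± 0.09 (DESeq2 adjusted p = 0.0200). FJX1, related to a Drosophila Golgi kinase of planar polarity, had a log2 fold of 0.58 ± 0.10 (DESeq2 adjusted p = 0.00200).

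**Figure D2:**
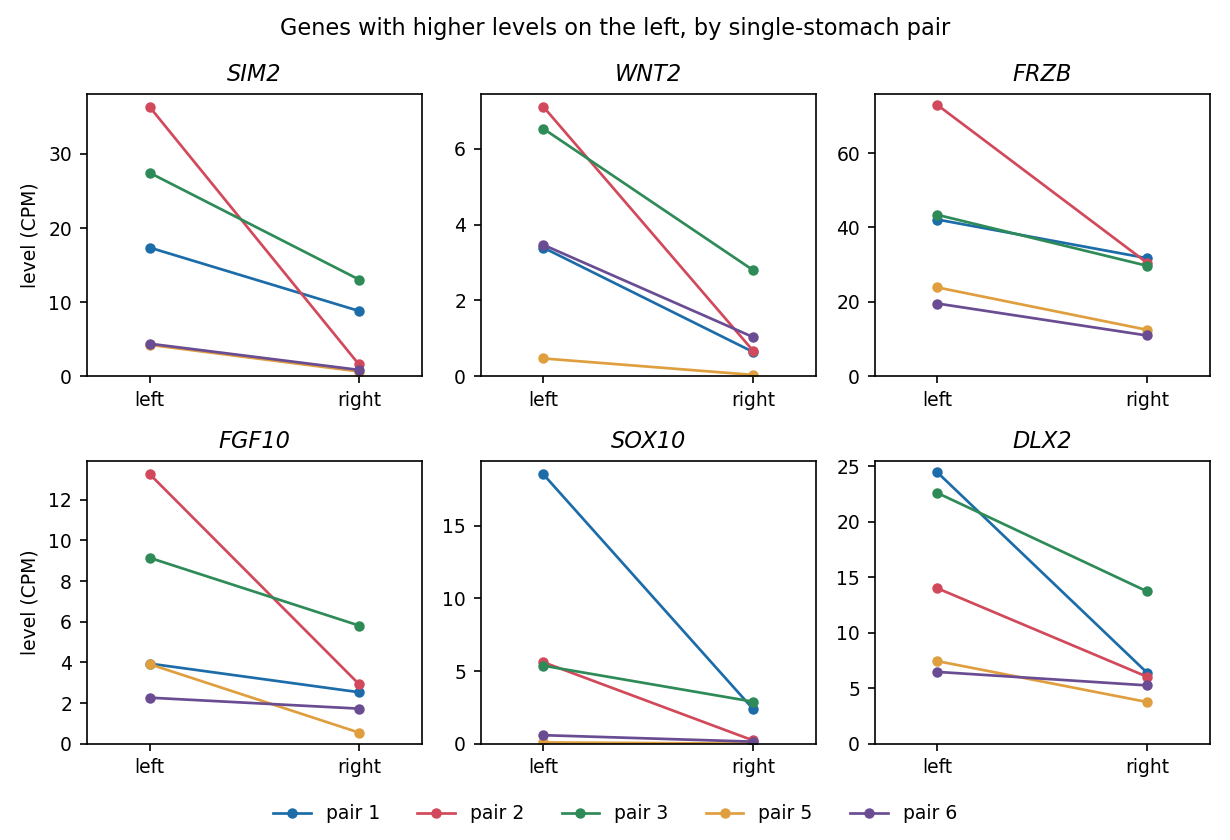
Levels in CPM of 6 genes called higher on the left, with 1 line per single-stomach pair from its left to its right library and a linear axis from 0 in each panel. All 30 lines fall from left to right, and pairs 5 and 6 lie lowest for SIM2, FRZB, SOX10 and DLX2.

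The homeobox factor IRX3 and the receptor EPHB3 were also higher in 5 of 5 pairs, with log2 folds of 0.72 ± 0.16 (DESeq2 adjusted p = 0.0105) and 0.42 ± 0.09 (DESeq2 adjusted p = 0.0352). IRX3 had a log2 fold of 0.93 ± 0.19 in pairs 1 to 3 and 0.39 ± 0.21 in pairs 5 and 6. It is also a member of the list of pronephros (embryonic kidney) genes, 11 of 12 of which had a positive fold. The summed level of that list was 4.67, 1.67, 0.716, 0.846 and 1.43 times that of the right in the 5 pairs, and its part in the fold of IRX3 was not tested. CRABP2, which carries retinoic acid inside cells, had a log2 fold of 0.90 ± 0.095 in pairs 1 to 3 and 0.081 ± 0.16 in pairs 5 and 6. The ERBB ligand NRG1 was higher in each pair, at 11.9 ± 1.498 CPM on the left against 8.40 ± 1.55 CPM on the right (SD, n = 5), and was not called (DESeq2 adjusted p = 0.094). PFKFB3, an enzyme that sets the pace of glycolysis, was the named gene whose sides did not overlap. Its left libraries held 18.1, 20.4, 16.7, 19.1 and 19.05 CPM and its right libraries 14.3, 10.9, 13.4, 13.7 and 14.75 CPM (DESeq2 adjusted p = 0.0497). PFKFB3 was also the 1 gene of the 79 that was called in none of the 5 fits that left out a pair. Of all genes tested, 25 (0.14%) had left and right libraries that did not overlap. ADAMTS5, a protease of extracellular matrix, was called with 5 of 5 pairs higher, and RGS16, CA14 and MYH2 were called with 4 of 5. RGS16 had a log2 fold of 1.28 ± 0.20 in pairs 1 to 3 and 0.33 ± 0.27 in pairs 5 and 6, and MYH2 had 2.00 ± 0.23 and 0.69 ± 0.45. NAT8B, an acetyltransferase entry with a close paralog that may share its reads, was called too (log2 fold 0.54 ± 0.12).

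Neural crest genes formed a further group on the left, carried mostly by pairs 1 and 2. SOX10, a factor of neural crest and glia, stood at 18.5, 5.602, 5.37, 0.0851 and 0.584 CPM on the left and at 2.40, 0.225, 2.89, 0 and 0.138 CPM on the right. Pair 5 was near 0 on both sides and pair 1 held by far the highest library. The log2 fold of SOX10 was 2.28 ± 0.40 (DESeq2 adjusted p = 0.0225), and without pair 6 it was not called (adjusted p = 0.0681). SOX8, its relative, stood at 10.6 ± 11.1 CPM on the left against 4.19 ± 3.47 CPM on the right (SD, n = 5), higher in 5 of 5 pairs (DESeq2 adjusted p = 0.0200). The log2 fold of SOX8 was 1.31 ± 0.35 in pairs 1 to 3 and 0.48 ± 0.41 in pairs 5 and 6. DBH, the enzyme that makes noradrenaline, was called with a log2 fold of 0.84 ± 0.22 (DESeq2 adjusted p = 0.0455). Unlike SOX10 and SOX8 it had its widest gaps in pairs 2 and 5, with log2 ratios of 1.22 and 1.24. DBH was called in 1 of the 5 fits that left out a pair. In the list of neural crest and enteric neuron genes 19 of 24 tested members had a positive fold and 5 were higher in every pair, against 3.11% of all genes tested. The median log2 fold of the list was 0.42, against -0.0051 over all genes tested, of which 8602 of 17835 were positive. The summed level of the list was 1.45 and 1.43 times as high on the left in pairs 1 and 2 and 0.995 to 1.09 times in the others. In bulk tissue, fewer cells of a type and less RNA per cell cannot be told apart.

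Genes of liver and plasma were among those lower on the left. AKR1D1, a steroid reductase of bile acid synthesis, stood at 98.7, 33.6, 15.4, 25.3 and 8.79 CPM on the left and at 173, 65.5, 34.8, 38.1 and 14.6 CPM on the right. Right exceeded left in each pair, while levels differed more between pairs than between sides. Its log2 fold was -0.85 ± 0.09 (DESeq2 adjusted p = 1.98e-10), -0.98 ± 0.09 in pairs 1 to 3 and -0.66 ± 0.18 in pairs 5 and 6. FGG, the gamma chain of the clotting protein fibrinogen, stood at 1037, 567, 256, 773 and 714 CPM on the left and at 2127, 976, 503, 1258 and 917 CPM on the right. Pair 6 had the narrowest gap, and the log2 fold was -0.77 ± 0.10 (DESeq2 adjusted p = 2.6e-08). The other chains FGA and FGB had log2 folds of -0.70 ± 0.10 and -0.62 ± 0.11.

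The plasma carrier APOM, an apolipoprotein, stood at 123, 56.2, 41.2, 78.6 and 83.5 CPM on the left and at 206, 82.4, 63.2, 124 and 102 CPM on the right. All 5 right libraries exceeded their left partners, and the log2 fold was -0.57 ± 0.08 (DESeq2 adjusted p = 2.65e-05). CPB2 and SERPINF2, both inhibitors of clot breakdown, had log2 folds of -0.52 ± 0.07 (DESeq2 adjusted p = 0.000123) and -0.51 ± 0.08 (DESeq2 adjusted p = 0.000324). GC, the vitamin D carrier, had a log2 fold of -0.71 ± 0.15, with -1.01 ± 0.11 in pairs 1 to 3 and -0.30 ± 0.17 in pairs 5 and 6. The retinol carriers RBP4 and TTR had log2 folds of -0.48 ± 0.11 and -0.64 ± 0.19, the latter with pair 2 the other way. SERPINA1, APOC2 and OIT3 were called with log2 folds between -0.70 and -0.52, each lower in 5 of 5 pairs.

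The same held across the list of liver-made plasma proteins. Of 25 members tested 24 had a negative fold, 11 were lower in every pair and 9 were called lower, against 4.17% and 0.286% of all genes. The median log2 fold of the list was -0.47. Its summed level was lower on the left in 5 of 5 pairs, by ratios of 0.574, 0.613, 0.675, 0.711 and 0.869. Between libraries the sum ran from 3266 to 17850 CPM, a 5.47-fold range that is wider than the side difference of this sum in any pair. A2M alone among the tested members had a positive fold, of 0.06 ± 0.08. ITIH2 and AMBP, a heavy chain of a plasma protease inhibitor and the precursor of its light chain, followed no single direction. ITIH2 stood at 0.246 CPM in left 2 and 299 CPM in right 2, and at 13.1 against 2.68 CPM in pair 3. AMBP stood at 1.69 and 357 CPM in pair 2 and at 42.8 and 8.17 CPM in pair 3, so both genes were lower on the left in pair 2 and higher in pair 3. Further called genes with liver or plasma roles, chosen after their values were seen, were PROZ and GGCX of the vitamin K pathway of clotting, COLEC11 of the complement system, FETUB, KMO of tryptophan breakdown, GATM of creatine synthesis and CYP8B1 of bile acid synthesis. KYNU, a tryptophan enzyme like KMO, was named by the rule, with a log2 fold of -0.82 ± 0.20, -1.19 ± 0.14 in pairs 1 to 3 and -0.20 ± 0.23 in pairs 5 and 6.

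**Figure D3:**
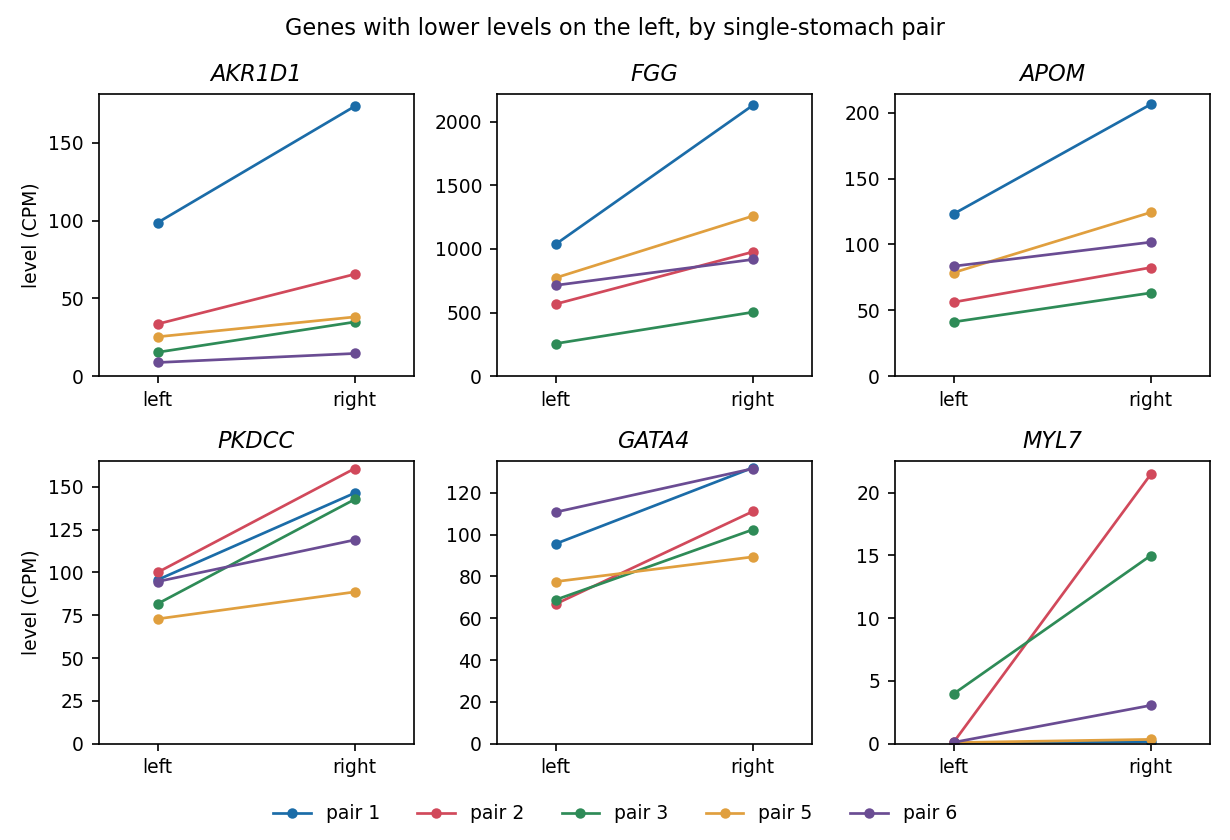
Levels in CPM of 6 genes called lower on the left, with 1 line per single-stomach pair from its left to its right library and a linear axis from 0 in each panel. All 30 lines rise from left to right, and for AKR1D1, FGG and APOM pair 1 lies highest on both sides, while for MYL7 pairs 2 and 3 hold nearly all of the signal.

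The secreted kinase PKDCC and the transcription factors GATA4, PDX1 and HAND1 were called lower on the left. PKDCC, which modifies matrix proteins, stood at 95.7, 100.1, 81.8, 72.9 and 94.7 CPM on the left and at 146, 161, 143, 88.6 and 119 CPM on the right. Right 5 was the single right library within the range of the left ones, and the log2 fold was -0.54 ± 0.09 (DESeq2 adjusted p = 0.000447). For PKDCC it was -0.70 ± 0.07 in pairs 1 to 3 and -0.31 ± 0.16 in pairs 5 and 6. GATA4, a factor of endoderm and mesoderm, stood at 95.7, 66.8, 68.9, 77.5 and 111 CPM on the left and at 132, 111, 102, 89.4 and 132 CPM on the right. It was lower in each pair, with a log2 fold of -0.44 ± 0.09 (DESeq2 adjusted p = 0.0148). The log2 fold of GATA4 was -0.59 ± 0.08 in pairs 1 to 3 and -0.23 ± 0.16 in pairs 5 and 6. GATA4 was not called without pair 1, 2 or 3 (DESeq2 adjusted p = 0.224, 0.181 and 0.114). PDX1, a factor of pancreas and duodenum, had a log2 fold of -0.61 ± 0.14 (DESeq2 adjusted p = 0.0133). HAND1, a factor of lateral mesoderm and heart, had a log2 fold of -0.71 ± 0.17 (DESeq2 adjusted p = 0.00634). For PDX1 the value was -0.91 ± 0.07 in pairs 1 to 3 and -0.17 ± 0.17 in pairs 5 and 6, and for HAND1 it was -1.05 ± 0.14 and -0.24 ± 0.16.

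ACTA2, the actin of smooth muscle, stood at 40.1, 29.3, 32.2, 37.5 and 46.7 CPM on the left and at 57.1, 38.6, 37.6, 57.4 and 60.6 CPM on the right. Its log2 fold was -0.43 ± 0.08 (DESeq2 adjusted p = 0.0148), and reads of other actins may be counted with it. In the smooth muscle list 10 of 14 tested members had a negative fold, with a median log2 fold of -0.16. Other genes called lower were GUCY1B1, a subunit of the nitric oxide receptor (log2 fold -1.58 ± 0.29), F2RL3, a thrombin receptor (-0.50 ± 0.09), the kinase CAMK1D (-0.59 ± 0.11), the crosslinking enzyme TGM1 (-0.78 ± 0.17) and the calcium channel RYR1 (-0.66 ± 0.18). In pairs 1 to 3 the log2 fold of GUCY1B1 was -1.89 ± 0.29 and that of RYR1 -1.08 ± 0.19, and in pairs 5 and 6 they were -0.54 ± 0.57 and -0.31 ± 0.19.

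Cardiac muscle genes were lower on the left too, and MYL7 had the largest negative fold of the genes called. MYL7, the light chain of atrial myosin, stood at 0.0343, 0.123, 3.98, 0.0851 and 0.106 CPM on the left and at 0.169, 21.5, 14.99, 0.340 and 3.05 CPM on the right. Right 2 and right 3 held most of it, left 3 lay above right 1, 5 and 6, and the log2 fold was -3.38 ± 0.57 (DESeq2 adjusted p = 0.0362). LRRC10, a cardiac leucine-rich repeat protein, and XIRP2, an actin-binding protein of striated muscle, had log2 folds of -1.58 ± 0.24 and -1.71 ± 0.50. Of 11 cardiac members tested, 11 had a negative fold, 4 were lower in every pair and MYL7 was called. Of all genes tested, 9233 of 17835 had a negative fold, 4.17% were lower in every pair and 0.286% were called lower. The median log2 fold of the list was -0.955. The summed level was lower on the left in 5 of 5 pairs, from 0.193 times the right in pair 2 to 0.871 times in pair 5. It stood at 258.5 CPM in right 2 against 49.8 CPM in left 2, and the share of these values in other side differences was not tested. MYH6 and MYH7 are near-identical copies, and their values are uncertain.

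Seen by signalling pathway, differences were small and few members passed. In the list of Wnt ligands and canonical signalling 37 of 49 tested members had a positive fold, 8 were higher in every pair, 0 were lower in every pair and 3 were called, WNT2, FRZB and RSPO3. Over all genes tested, the background for this and the following lists, 8602 of 17835 had a positive fold, 3.11% were higher and 4.17% lower in every pair, and 0.157% were called higher and 0.286% lower. The median log2 fold of the Wnt list was 0.11, and its summed level was 0.965 to 1.12 times that of the right. Such a sum is weighted towards abundant members, so it says little of WNT2, with a mean of 2.62 CPM. In the noncanonical list 14 of 22 members were positive and 1 was called. FGF signalling had 11 of 16 members positive, with FGF10 called and a median of 0.11. Hedgehog signalling had 12 of 14 positive and 0 called, with a median of 0.21, and its inhibitor HHIP was higher in 5 of 5 pairs (log2 fold 0.58 ± 0.17). Notch signalling had 12 of 16 positive, HEY1 called and a median of 0.24. BMP signalling had 14 of 22 negative and 0 called, and 4 members were lower in every pair, the ligands BMP2 (-0.31 ± 0.09) and BMP4 (-0.33 ± 0.12), the receptor BMPR2 (-0.35 ± 0.14) and the target ID3 (-0.28 ± 0.08). The retinoic acid list had 9 of 13 positive, with CRABP2 called higher and RBP4 called lower.

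Factors of endoderm and mesenchyme were split in direction. In the list of foregut endoderm factors 17 of 26 were negative, 5 were lower in every pair and 2, GATA4 and PDX1, were called lower, against 4.17% of all genes lower in every pair and 0.286% called lower. SOX2 was the 1 member higher in every pair, at 90.1, 134, 120, 17.0 and 18.7 CPM on the left and at 40.8, 55.8, 99.7, 4.71 and 17.6 CPM on the right. It was not called. In the list of gut mesenchyme factors 24 of 32 were positive, with a median log2 fold of 0.16, and HAND1 was called lower. OSR1 (0.52 ± 0.14), TBX5 (0.54 ± 0.17) and MEIS2 (0.27 ± 0.08), all transcription factors, were higher in every pair. HAND2, a relative of HAND1, stood at 46.7, 63.5, 50.6, 48.4 and 48.5 CPM on the left and at 119, 78.5, 85.9, 54.8 and 49.6 CPM on the right, lower in each pair. Its edgeR log2 fold was -0.52 ± 0.18, and HAND2 was not called. Genes named in these list accounts that were not called were chosen after their values were seen. Among 10 bHLH-PAS factors 6 were positive and SIM2 was called, and in the cell cycle list 26 of 38 were positive and 0 were called.

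**Figure D4:**
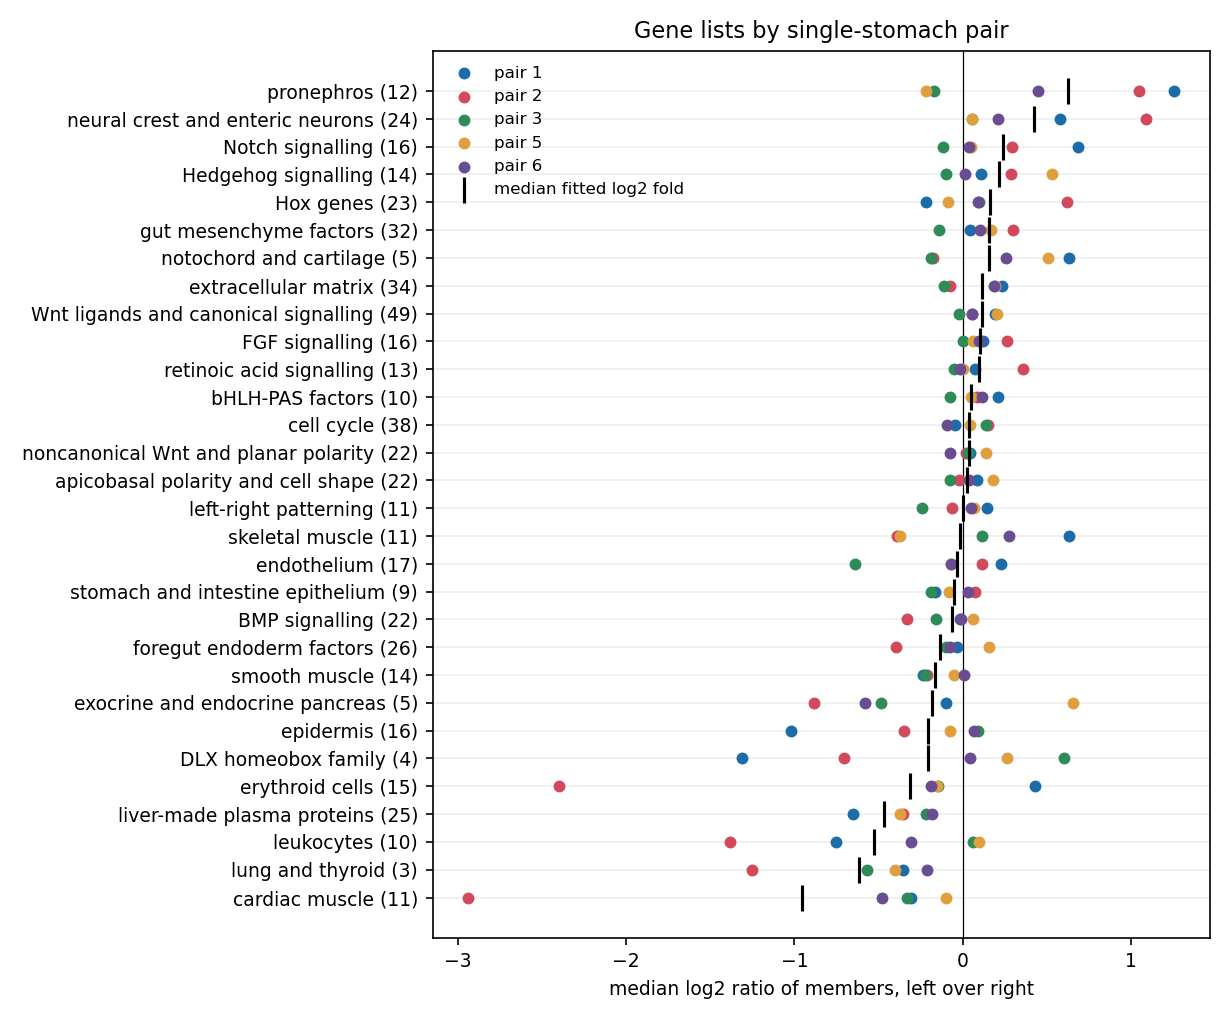
For each gene list (tested members in brackets) the coloured points give the median log2 ratio of the members, left over right, in each pair, and the black tick the median edgeR log2 fold. Cardiac muscle, lung and thyroid, and liver-made plasma proteins lie left of 0 in all 5 pairs, neural crest and FGF lists lie right of 0 in all 5, and pairs 1 and 2 reach furthest from 0 in most lists of other tissues.

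The pairs differed among themselves in how far left and right lay apart. The SD of the log2 ratio over genes was 0.463 in pair 1, 0.446 in pair 2, 0.28 in pair 3, 0.366 in pair 5 and 0.273 in pair 6. Genes at least 2-fold apart numbered 412 higher and 337 lower on the left in pair 1, 264 and 368 in pair 2, 38 and 86 in pair 3, 134 and 42 in pair 5, and 65 and 25 in pair 6. Not 1 gene was at least 2-fold apart in the same direction in all 5 pairs, and 7 were at least 1.25-fold higher and 11 at least 1.25-fold lower in every pair. Over the genes tested, the log2 ratios of pairs 1 and 2 correlated at 0.45 and those of pairs 1 and 3 at -0.22. Genes are not independent replicates, and these values describe the pairs without a test. In all, 554 genes (3.11%) were higher and 743 (4.17%) lower on the left in all 5 pairs.

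Among reviewed genes with a mean of at least 10 CPM, SIM2 was 1 of the 5 with the largest left excess in pairs 2, 5 and 6, at ratios of 17.8, 4.19 and 3.63. The kidney gene LRP2 and RGN were in the left tops of pairs 1, 2 and 6. RGN, a calcium-binding protein of liver and kidney, was 192-fold and 37.6-fold higher on the left in pairs 1 and 2 and 15.1-fold higher in pair 6, but 6.22-fold lower in pair 3. In pair 5 SOX2 (3.36-fold) and KLF4, an epithelial transcription factor (2.79-fold), were among the genes furthest to the left. In pair 1 HOXC8, a Hox factor of the trunk, was 5.43-fold lower on the left. These tops were chosen after their values were seen and carry no test.

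Transcripts listed for other tissues stood high or low in particular libraries. Kidney genes stood high in left 1, where the pronephros list summed to 488 CPM against 104.5 CPM in right 1. LRP2, an endocytic receptor of kidney tubules, was at 203, 60.3, 34.3, 31.0 and 27.6 CPM on the left and at 0.270, 1.67, 99.2, 39.0 and 5.53 CPM on the right. It was lowest in right 1 and right 2, and the direction was reversed in pairs 3 and 5. The podocyte gene NPHS1 was low in the same 2 libraries, at 2.80 and 0.180 CPM there and at 10.7 to 90.3 CPM elsewhere. Erythroid genes summed to 1116 CPM in left 2 and 6205 CPM in right 2, and to between 0.835 and 1.29 times the right in the other pairs. Leukocyte genes had 10 of 10 tested members with a negative fold, and their sum was 0.344 times the right in pair 2 but 1.47 times in pair 5. The macrophage receptor CSF1R was lower in every pair and was not called (DESeq2 adjusted p = 0.0726). The list of epidermal genes had 16 of 16 negative with a median of -0.20. KRT8 was the 1 member lower in every pair. Members such as KRT8 can be made by other epithelia too, so the list does not single out epidermis. By pair the median log2 ratio of the epidermal list was -1.02, -0.349, 0.0927, -0.0724 and 0.0697, so its direction was not shared by all pairs. The origin of these transcripts and their part in the side differences were not tested. The counts of calls without pair 1 (23) and without pair 2 (36) do not tell which transcripts of those pairs the calls rest on.

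The pooled libraries gave a different picture for many of the same genes. In the pools SIM2 stood at 11.5 and 7.50 CPM on the left and at 0.541 and 0 CPM on the right, so the left was higher there too. PKDCC stood at 81.3 and 32.5 CPM on the left and at 99.4 and 102.8 CPM on the right. It was lower on the left, as in the pairs. MYL7 stood at 31.6 and 3.90 CPM on the left and at 28.4 and 48.6 CPM on the right. The mean of MYL7 was lower on the left, 17.8 against 38.5 CPM. Its left pool of 31.6 CPM lay above the right pool of 28.4 CPM. By contrast AKR1D1 stood at 377 and 602 CPM on the left and at 308 and 475 CPM on the right, and FGG at 4404 and 5593 against 3509 and 4432 CPM. These pool levels lie above every single-stomach library, and the direction was opposite. FRZB was at 35.1 and 10.7 CPM on the left and at 32.9 and 44.1 CPM on the right, and WNT2 at 2.94 and 0 against 1.28 and 0.576 CPM, with the 2 pools of a side far apart.

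Counted over the calls, 14 of the 28 genes called higher had a positive ratio in the pools (50%), where 52.5% of all genes tested were positive. Of the 51 called lower, 15 were negative in the pools (29.4%), where 46.8% of all genes tested were negative. Among genes tested with a positive mean ratio in the pairs, 46.3% were positive in the pools. Among those with a negative mean ratio, 41.1% were negative there. In the liver list 20 of 25 members were positive in the pools, with a median of 0.32, against 24 of 25 negative in the pairs. In the neural crest list 18 of 24 were negative in the pools, and in the cardiac list 9 of 11 were negative there, against 11 of 11 in the pairs. The difference between the side effect in the pairs and in the pools was tested by edgeR as an interaction, with the title stem as a block for the pairs and 1 shared level for the 4 pools, which were not paired. It called 5 of 17629 genes (0.0284%), and none of the 79 paired calls was among them. An unadjusted interaction p under 0.05 was found for 33 of the 51 called lower and 9 of the 28 called higher. Over all genes in this test 2252 (12.8%) had one. The 79 were chosen by the same pairs, so a larger share among them is no separate support. With no block edgeR called 0, and DESeq2 with the same block called the interaction for 663 genes (3.56%), among them 18 of the 51 and 3 of the 28. The pools were prepared at another facility, so pooling and preparation cannot be told apart.

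**Figure D5:**
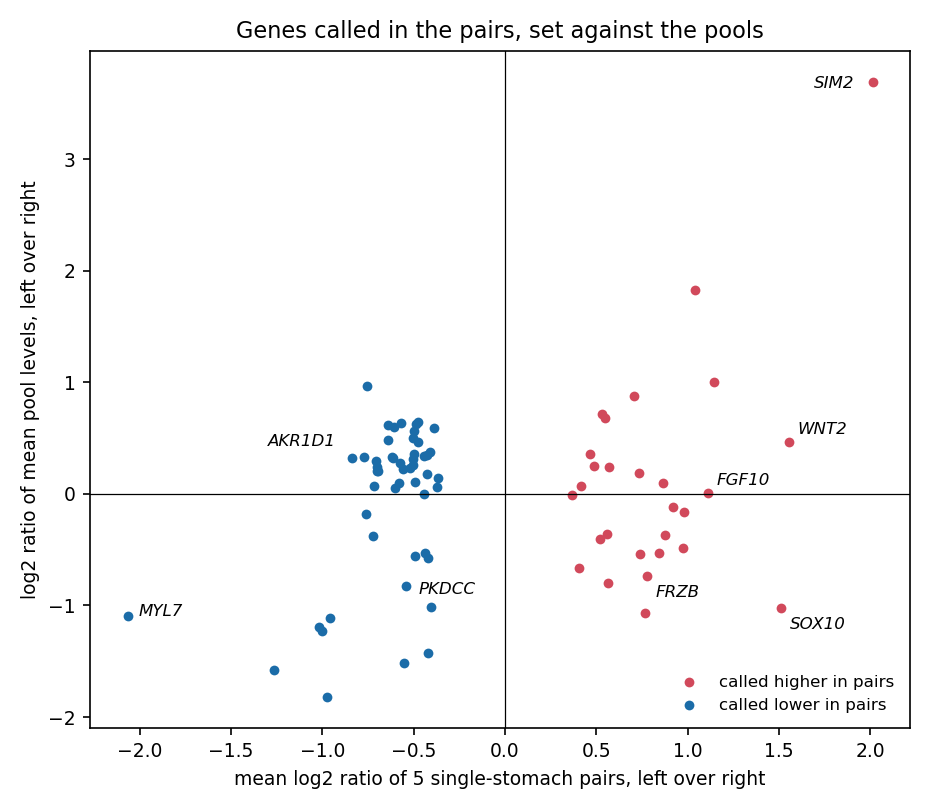
Each point is 1 of the 79 genes called by DESeq2 in the pairs, with the mean log2 ratio of the 5 pairs, left over right, on the horizontal axis and the log2 ratio of the mean pool levels on the vertical axis, each with 0.5 CPM added. SIM2 is far above 0 on both axes, the cluster around AKR1D1 lies left of 0 in the pairs and above 0 in the pools, and PKDCC and MYL7 lie below 0 on both.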

How the data were processed

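RNA of left and right stomach was sequenced from strand-specific libraries after Trizol extraction, column clean-up and DNase treatment, per the labels. Raw read counts were deposited by the authors for 26940 rows, each a human UniProt entry or isoform. The submitters' processing notes list Bowtie, Bowtie2 2.1.0, DESeq, SAMtools 0.1.19 and Trimmomatic, with no role stated. The rule by which a read was counted for a row, or any use of strand, is not given in the sources used here, and paralogs may share reads. A deposited normalized table was not used.

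Rows were summed to 21099 entries, of which 13574 were reviewed and 4048 of those had more than 1 row. Left and right of the 5 pairs were compared by edgeR 4.0.16 (quasi-likelihood, TMM, filterByExpr, title stem as a block, Benjamini-Hochberg threshold 0.05) in R 4.3.3. DESeq2 1.42.0 with the same block, limma 3.58.1 and other settings were alternatives. The standard error of an edgeR fold is its absolute value over the square root of the F statistic. Ratios per pair are of CPM with 0.5 added.

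Named genes were SIM2 and reviewed entries with mean CPM of at least 1, per direction the 15 smallest edgeR p-values among genes of 1 sign in all pairs and the 15 largest folds called by DESeq2, plus up to 6 called members per list. Some genes that this rule names are not reported here. The 30 lists held 677 symbols, 595 with a row. Members, lists and tests were chosen with earlier results of these data known.

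The stems were checked as pairs. Libraries of 1 stem deviated from their side's mean together, with correlations of 0.63, 0.65, 0.65, 0.78 and 0.85 in pairs 1, 2, 3, 5 and 6. Of the 10 libraries, 8 correlated best with the library of their own stem. The division into pairs 1 to 3 and 5 to 6 adds to this, and inside these sets the values were 0.48, 0.26, 0.092, 0.46 and 0.46. In the set of pairs 5 and 6 the 2 values are equal by construction and count as 1. Over 20 comparisons of same-side libraries, chi-square divided by its degrees of freedom was 19.3 to 271, beyond counting noise.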

Additional observations from a re-analysis of the deposited data

Results flagged for a closer look

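Within the named genes, 2 of 53 had 1 pair far from the other 4 by Dixon's criterion, which chance meets in about 1 of 20 unselected groups. The named genes were chosen largely by values of the same pairs, so that rate is not a reference for them. PFKFB3 had a log2 ratio of 0.877 in pair 2, against 0.306 to 0.47 in the others. NAT8B had a log2 ratio of 0.0750 in pair 6, against 0.52 to 0.697 in the others.

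The side effect of 5 genes of motile cilia differed between the single-stomach pairs and the pools in the edgeR interaction test. The difference, pairs minus pools on the log2 scale, was -4.35 for DNAI2 (edgeR adjusted p = 0.0475) and -4.77 for DNAH5 (edgeR adjusted p = 0.000241), both dynein chains. It was -5.64 for EFHC2 (edgeR adjusted p = 0.0476) and -3.02 for RSPH4A (entry RSH4A), a radial spoke protein (edgeR adjusted p = 0.0476). For CFAP44 (entry WDR52) it was -4.56 (edgeR adjusted p = 0.0475). In fits added after seeing the data, the test called 1 gene without pair 1, 2, 5 or 6 and 4 without pair 3. In the pairs the edgeR log2 folds of the 5 genes ran from -0.17 for EFHC2 to 0.05 for RSPH4A. In the right pools few reads were left, with DNAH5 at 6 and 4 counts, against 85 and 104 in the left pools and 1356 to 12519 in the single-stomach libraries.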

How the results depend on the processing

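The edgeR count of 0 calls between the sides was moved by DESeq2 with the replicate block (79), by pairs 5 and 6 alone (1) and by an unadjusted p of 0.05 (1089). Under the other settings tried, among them no replicate block, other scalings and filters, voom, trend and each pair left out, it was 0. The DESeq2 count of 79 ran from 23 to 93 with 1 pair left out, was 121 in pairs 1 to 3 alone, 119 at a threshold of 0.10 and 19 at 0.01. In settings added after seeing the data it was 0 with no replicate block and 1 in pairs 5 and 6 alone. The interaction count of 5 was 3 with RLE factors, 1 without scaling, 0 with no replicate block and 663 by DESeq2. Leave-one-out counts, added after seeing the data, ran from 1 to 3030, the latter without the first left pool. With 1 pool of a side left out, the lone pool is assumed to vary like the others. Of 1057 alternative folds of 53 named genes, 0 reversed, and 51 passed where edgeR had not, 50 of them by DESeq2. The named genes were chosen largely for 1 sign in all pairs or for a call. Since the settings reuse those pairs, reversals were unlikely from the start, and their absence is no separate support. The SIM2 mean log2 ratio ran from 1.48 to 2.28 with a pair left out. Ratios of genes near 0 CPM rest on few reads, as for SOX10 in pair 5, although that pair was among the deepest.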
